A study of Mus musculus with 2 samples.

Results

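The genes described here encode the BCL2 family, the caspases, the inhibitors of apoptosis and the proteins that link death receptors to caspases. They were chosen by name: a gene was included if the array had a probe set annotated to that gene alone. Of 31 listed genes, 29 were found among 18193 genes on the array, with 75 probe sets between them, and 28 were measured, which means that the probe set used was above background on at least 1 array. Bik was at background in both lines by the probe set used, and Bax and Ripk1 were not analysed here.

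The study set 2 mouse cell lines labelled endothelial side by side, with 1 Affymetrix array for each. SVEC4-10 was derived from an axillary lymph node and grown in DMEM with 10% fetal calf serum, and MS-1 was derived from the microvasculature of the pancreas and grown in DMEM with 5% fetal calf serum. Both lines were harvested as confluent flasks after 3 to 5 days, at passage 5 or earlier, and both carry the large T antigen of SV40, a viral protein that binds and inactivates p53, which is background knowledge on these lines and not a label. Each line is an immortalised population measured once, so the differences below have no replicate check, and none has a p-value. Serum and line cannot be told apart, because each line had its own medium.

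Apoptosis by the mitochondrial route is set by binding among BCL2 proteins. Anti-apoptotic members hold the pore formers in check, BH3-only members bind the anti-apoptotic ones when a cell is stressed, and an open pore lets cytochrome c reach Apaf1, which activates caspase-9. Death receptors use a second route through Fadd and caspase-8, which Cflar restrains, and where caspase-8 is not active Ripk3 can drive necroptosis, a lytic form of death. Endothelial cells are known to depend on survival signals, from growth factors and from attachment, that act in part on these proteins.

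The upstream sequences of 4 members are shown as examples chosen after the values were seen: Casp1 and Ripk3 had far higher signal in SVEC4-10, Casp4 is the chromosomal neighbour of Casp1 without such a difference, and Bcl2 had lower signal in SVEC4-10. Each is the 250 bases before an annotated start in RefSeq, assembly GRCm38.p6, read 5′ to 3′ on the strand of the gene. Capitals mark every match, on either strand, to 1 of 4 motifs: GTAAACA (forkhead type), CACGTG (E-box), GGGCGG (GC box) and TATAAA (the TATA box). The sequences lie at chr9:5298267-5298516 on the plus strand for Casp1, chr9:5308599-5308848 on the plus strand for Casp4, chr14:55788858-55789107 on the minus strand for Ripk3 and chr1:106714291-106714540 on the minus strand for Bcl2.
Casp1: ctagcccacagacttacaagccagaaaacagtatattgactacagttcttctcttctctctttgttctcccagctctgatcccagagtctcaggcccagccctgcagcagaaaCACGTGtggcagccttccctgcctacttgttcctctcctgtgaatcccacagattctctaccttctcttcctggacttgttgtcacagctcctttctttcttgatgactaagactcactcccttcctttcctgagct
Casp4: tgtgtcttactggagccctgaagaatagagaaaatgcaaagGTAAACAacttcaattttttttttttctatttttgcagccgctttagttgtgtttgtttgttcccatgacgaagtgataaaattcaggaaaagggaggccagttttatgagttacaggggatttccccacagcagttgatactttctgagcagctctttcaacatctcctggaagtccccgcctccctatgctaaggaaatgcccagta
Ripk3: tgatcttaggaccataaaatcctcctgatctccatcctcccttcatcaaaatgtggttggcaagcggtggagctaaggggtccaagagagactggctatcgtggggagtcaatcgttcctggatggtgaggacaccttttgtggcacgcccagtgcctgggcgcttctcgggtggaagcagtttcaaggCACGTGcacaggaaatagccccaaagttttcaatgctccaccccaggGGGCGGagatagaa
Bcl2: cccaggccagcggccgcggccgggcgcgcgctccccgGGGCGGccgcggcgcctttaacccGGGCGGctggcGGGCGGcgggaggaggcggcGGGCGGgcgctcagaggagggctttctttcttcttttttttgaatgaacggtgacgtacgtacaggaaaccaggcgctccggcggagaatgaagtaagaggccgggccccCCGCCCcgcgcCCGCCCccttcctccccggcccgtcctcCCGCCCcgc

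The Casp1 and Ripk3 sequences each held CACGTG, which 6.02% of all 32851 promoters held over the same length. In Casp1 it lay 137 to 132 bases before the start and in Ripk3 61 to 56 bases before it. The Casp4 sequence held GTAAACA, found in 3.17% of all promoters, 209 to 203 bases before the start. The Bcl2 sequence was 74.8% G and C, against 49.2% for Casp1 and a median of 52.4% over all promoters, and held GGGCGG on both strands, a motif found in 32.7% of all promoters. Of the 42 promoters of 29 listed genes, GGGCGG was found in 25, CACGTG in 4, GTAAACA in 4 and TATAAA, which 12.4% of all promoters held, in 2. These 42 promoters had a median of 59.4% G and C. Pmaip1 and Bik had no promoter entry. The motifs were chosen with the sequences in view, 2 further ones that were also searched (an interferon-response type and an NF-kB type) are not reported here, and a match is a description of the letters.

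The lines were checked against markers first, because the label of both is endothelial. Of 12 endothelial markers, 11 were measured and all 11 were lower in SVEC4-10 by at least 4-fold, where Pecam1 (signal 1.27, against 4777 in MS-1) and Cdh5 were below background and Kdr (21.9, against 1268 in MS-1) was barely above it. All 10 measured of 12 mesenchymal markers were higher in SVEC4-10 by at least 2-fold, Col1a1 and Dcn among them. The summed signal of the endothelial list was 219 in SVEC4-10 and 30747 in MS-1, and that of the mesenchymal list was 34653 in SVEC4-10 and 156 in MS-1. The leukocyte marker Ptprc was below background in both lines. Other markers of that list were not, among them Cd68 (45.9 in SVEC4-10, 3645 in MS-1) and Cd14 (160.0 in SVEC4-10, below background in MS-1). Background, taken from probe sets of odorant and taste receptor and similar silent genes, was a signal of 17.6 in SVEC4-10 and 16.3 in MS-1.

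All ratios below are signals of SVEC4-10 over MS-1 on the log2 scale, after values below background were raised to it, so a fold against background is written as at least that size. The error attached to a ratio is 0.48 (log2), the standard deviation between probe sets of one gene over 4813 genes. It holds no variation between cultures, and probe sets of a gene can read different transcripts. A ratio called within the error is so with the deposited scaling, since the poly-A scaling described next lowers ratios by about 0.51. In RNA from whole cultures, fewer cells that express a gene and less of its RNA per cell cannot be told apart.

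Of the 28 measured members, 5 were at least 2-fold higher in SVEC4-10, namely Ripk3, Casp1, Bmf, Casp6 and Casp9, 4 were at least 2-fold lower, namely Birc3, Bcl2, Bcl2l2 and Bcl2l1, and 19 were neither. Among all 12454 measured genes, 15.2% were at least 2-fold higher in SVEC4-10 and 12% at least 2-fold lower. The members' shares of 17.9% and 14.3% lay near these, so the counts say nothing particular about these genes. Their median ratio was -0.11, against 0.015 for all measured genes. At 4-fold, 3 members were higher and 0 lower, beside 5.65% and 4.24% of all measured genes. Scaling to the poly-A control transcripts, which were 0.51 (log2) brighter on the SVEC4-10 array, turned the 5 and 4 members into 4 and 8, and the 1895 and 1498 genes of the whole array into 1058 and 3169. The lower members it added were Xiap, Cflar, Casp4 and Pmaip1, and the higher one it removed was Casp9 (0.74).

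**Figure D1:**
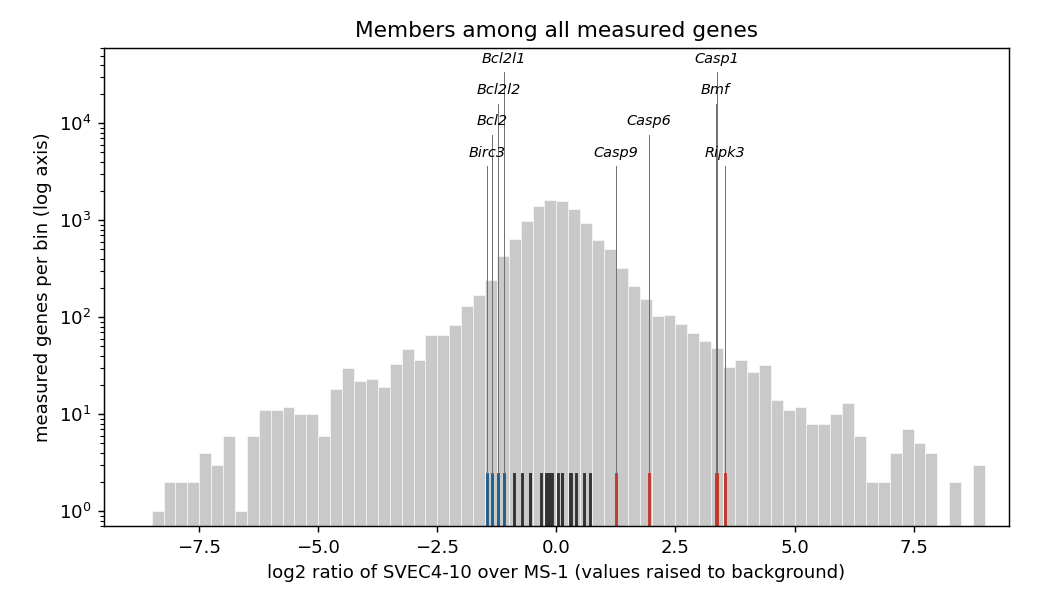
Histogram of the log2 ratio of SVEC4-10 over MS-1 for the 12454 measured genes (bars, number of genes per bin on a log axis), with the 28 measured members as ticks at the foot, red for at least 2-fold higher and blue for at least 2-fold lower in SVEC4-10. Casp1, Bmf and Ripk3 lie between 3.34 and 3.53, the Casp1 value being a lower bound, and the 4 lower members lie between -1.46 and -1.10.

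By the probe sets used and with the deposited scaling, the members at least 2-fold apart in each direction had different roles. All 4 of the lower members restrain cell death, and all 5 of the higher ones promote death or cleave proteins during it. Of 8 members that restrain death (Bcl2, Bcl2l1, Bcl2l2, Mcl1, Xiap, Birc2, Birc3 and Cflar), all 8 had a ratio below 0, with a median of -0.99, as 49.2% of all measured genes did. Mcl1 and Birc2 were within the error of 0, and the sign of Cflar turned (0.040) when the probe set of smallest ratio was used. The other 20 measured members had a median of 0.21. Of these, 5 (25%) were at least 2-fold higher in SVEC4-10 and 0 lower, beside 15.2% and 12% of all measured genes. These counts depended on the processing. Bcl2l11 was at -1.07 by the mean of its probe sets, and Pmaip1 and Casp4 were each at -1.07 under poly-A scaling. Of the higher ones, Bmf fell to 0.76 without the less specific probe set classes, and Casp9 to 0.74 under poly-A scaling. This division was made after the values were seen, and nothing was tested on it. It covers the members only. Of 48 measured genes of the further cell death lists below, 11 were at least 2-fold higher in SVEC4-10 and 3 lower. The lower ones included Gsdme (-1.72), a gasdermin that effector caspases cleave. Among the higher ones was Naip6 (at least 2.01-fold), listed with further inhibitors.

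**Figure D2:**
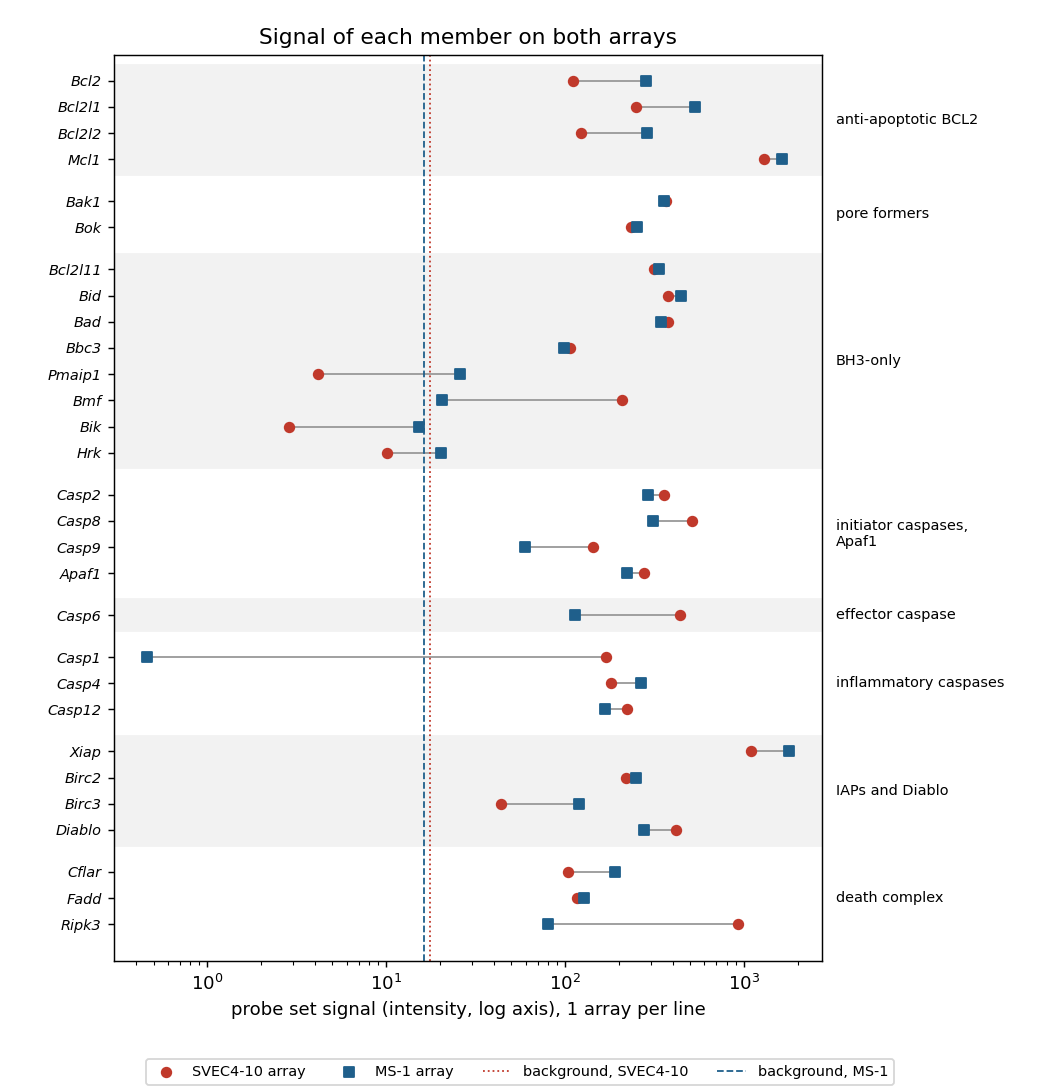
Probe set signal (intensity, log axis) of each of the 29 members on the SVEC4-10 array (red circles) and the MS-1 array (blue squares), 1 array per line, grouped by role, with the background of each array as a dotted (SVEC4-10) and a dashed (MS-1) line. Ripk3 has a signal of 924 in SVEC4-10 and 79.8 in MS-1, Casp1 is far below background in MS-1, and Bcl2, Bcl2l1 and Bcl2l2 have the MS-1 point to the right.

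The anti-apoptotic BCL2 proteins had lower signal in SVEC4-10, and 3 of the 4 were at least 2-fold lower. Bcl2, which gave the family its name and guards the mitochondrial membrane, had a signal of 111 in SVEC4-10 and 283 in MS-1, a ratio of -1.35 and a 2.54-fold difference. Its 3 further measured probe sets gave -1.17, -0.95 and -0.51, so the direction held at each while the size did not.

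Bcl2l1, which encodes BCL-XL, had a signal of 248 in SVEC4-10 and 530.2 in MS-1, 2.14-fold lower in SVEC4-10. Both of its further measured probe sets gave a larger difference, with ratios of -1.51 and -1.57. Bcl2l2, which encodes BCL-W, had a signal of 123 in SVEC4-10 and 286 in MS-1, 2.33-fold lower in SVEC4-10, and its 3 further probe sets were at background in both lines. Mcl1, a short-lived guardian that is lost quickly when its synthesis stops, differed from this group: its signal was 1300.0 in SVEC4-10 and 1620 in MS-1, a ratio of -0.32 that is within the error, although its 6 probe sets all lay below 0, from -0.66 to -0.20. Bcl2l1 and Bcl2l2 were at least 2-fold lower under each of 9 other ways of processing, Bcl2 under 7 and Mcl1 under 0. For Bcl2l2, with 1 measured probe set above background in both lines, the other backgrounds and probe set choices could not move the ratio. Poly-A scaling could only lower it.

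With the deposited scaling, the pore formers were within the error by all 3 of their probe sets. Bak1, which oligomerises in the outer mitochondrial membrane, had a signal of 364 in SVEC4-10 and 356 in MS-1, a ratio of 0.031 that turned to -0.48 under poly-A scaling, and its dimmer probe set gave -0.45. Bok, a less studied relative found also at the endoplasmic reticulum, had a signal of 232 in SVEC4-10 and 252 in MS-1, a ratio of -0.12 that became -0.63 under poly-A scaling.

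Among the BH3-only genes, 1 of 7 measured members was at least 2-fold apart, and Pmaip1 also was under poly-A scaling (-1.07). The first was Bmf, whose product is released from the cytoskeleton when cells detach or are stressed, with a signal of 208 in SVEC4-10 and 20.6 in MS-1, a ratio of 3.34 and a 10.1-fold difference. The value rests on 1 probe set of a class that can match several transcripts. A second Bmf probe set gave a signal of 27.5 in SVEC4-10 and was below background in MS-1, at least 1.69-fold higher. The remaining Bmf probe set, of the cross-hybridising class, gave a signal of 24.8 in MS-1 and was below background in SVEC4-10, a ratio of -0.49.

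Bcl2l11, which encodes BIM, a killer of cells deprived of growth factors, gave probe sets that disagreed in size. The probe set used had a signal of 312 in SVEC4-10 and 333 in MS-1, a ratio of -0.093, whereas the other 4 gave ratios of -0.97, -1.30, -1.48 and -1.49. The mean over its 5 probe sets was -1.07, so Bcl2l11 was at least 2-fold lower in SVEC4-10 by 3 of 5 probe sets and not by the one of highest signal.

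The remaining BH3-only genes were within the error or close to background. Bid, which caspase-8 cleaves to join both death routes, had a signal of 377 in SVEC4-10 and 441 in MS-1, a ratio of -0.23. Bad, which growth factor kinases hold inactive, had a signal of 376 in SVEC4-10 and 345 in MS-1, a ratio of 0.12 that turned to -0.39 under poly-A scaling. Bbc3, which encodes the p53 target PUMA, had a signal of 106 in SVEC4-10 and 98.0 in MS-1, a ratio of 0.12 that turned to -0.40 with that scaling. By the probe sets used and with the deposited scaling, these 3 genes were within the error. Bid was at -0.74 under poly-A scaling, and its further probe sets gave -0.40 and -0.57.

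Pmaip1, which encodes the p53 target NOXA, was below background in SVEC4-10 (signal 4.15) and had a signal of 25.9 in MS-1, at least 1.47-fold lower in SVEC4-10. Hrk, a BH3-only gene known from neurons, was below background in SVEC4-10 and had a signal of 20.2 in MS-1, close to the background of 16.3. Bik had 1 probe set above background, of the cross-hybridising class, with a signal of 27.3 in MS-1 and none above background in SVEC4-10. These 3 genes were at the limit of what the arrays could measure.

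The caspases of the mitochondrial and death receptor routes had higher signal in SVEC4-10 where they differed beyond the error. Casp9, the initiator that the apoptosome activates, had a signal of 143 in SVEC4-10 and 59.9 in MS-1, a ratio of 1.26 and a 2.39-fold difference. Its second probe set gave 0.57, and a further one gave a signal of 130 in SVEC4-10 and was below background in MS-1, at least 7.96-fold higher. Casp8, the initiator downstream of death receptors, had a signal of 510 in SVEC4-10 and 312 in MS-1, a ratio of 0.71 that became 0.20 under poly-A scaling.

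Apaf1, the scaffold of the apoptosome, had a signal of 275 in SVEC4-10 and 221 in MS-1, a ratio of 0.32 that turned to -0.20 with that scaling. Casp2, an initiator linked to DNA damage, had a signal of 357 in SVEC4-10 and 291 in MS-1, a ratio of 0.29 that turned to -0.22. Neither exceeded the error by the probe set used, and a second probe set of Apaf1 gave 0.52, which is beyond it. Casp6, an effector caspase that cleaves nuclear lamins, had a signal of 440 in SVEC4-10 and 114 in MS-1, a ratio of 1.95 and a 3.86-fold difference, and it was at least 2-fold higher under each of the 9 other ways of processing. Its second probe set was at background in both lines, so the other backgrounds and probe set choices could not move the Casp6 ratio.

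The inflammatory caspases are encoded side by side on chromosome 9 in assembly GRCm38.p6, in the order Casp1, Casp4 and Casp12, with 0 other protein-coding genes between neighbours, and they did not share a difference. Casp1, which matures interleukin-1 beta and interleukin-18, had a signal of 169 in SVEC4-10 and 0.456 in MS-1, where it was below background, at least 10.3-fold higher in SVEC4-10. Casp4, known in mice also as caspase-11, the sensor of cytosolic lipopolysaccharide, had a signal of 180 in SVEC4-10 and 266 in MS-1, a ratio of -0.56. Casp12, a caspase of the endoplasmic reticulum, had a signal of 222 in SVEC4-10 and 166 in MS-1, a ratio of 0.42 at 1 probe set and 0.66 at the other, and the first turned to -0.096 under poly-A scaling. Casp1 and Casp4 each had 1 probe set, and only Casp1 of these 3 genes was at least 2-fold apart, although Casp4 reached -1.07 under poly-A scaling.

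Inhibitors of apoptosis bind caspases or act as ubiquitin ligases at the tumour necrosis factor receptor. Birc3, which encodes the ligase cIAP2, had a signal of 43.6 in SVEC4-10 and 120 in MS-1, a ratio of -1.46 and a 2.75-fold difference. Its neighbour on chromosome 9, Birc2, which encodes the related cIAP1, had a signal of 219 in SVEC4-10 and 249 in MS-1, a ratio of -0.18 that is within the error. The adjacent genes therefore differed to an unequal degree, with Birc3 read by 1 measured probe set, of a less specific class. The other Birc3 probe set was at background in both lines, so Birc3 had no value once the less specific classes were left out.

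Xiap, which blocks caspases directly, had a signal of 1092 in SVEC4-10 and 1793 in MS-1, a ratio of -0.71. All 5 of its measured probe sets lay below 0, from -1.18 to -0.38. Diablo, the mitochondrial protein that displaces these inhibitors from caspases, had a signal of 415 in SVEC4-10 and 277 in MS-1, a ratio of 0.58 that became 0.069 under poly-A scaling.

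**Figure D3:**
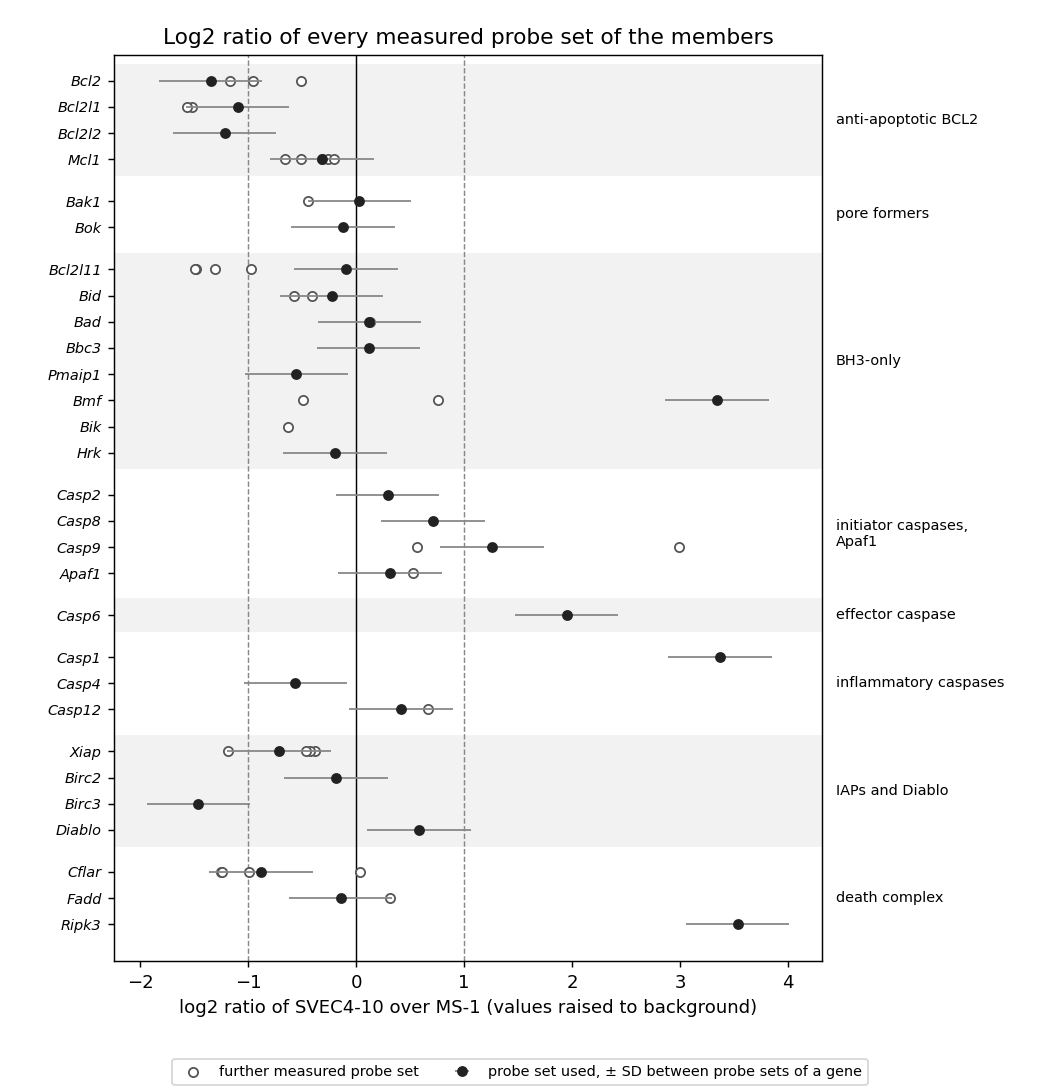
Log2 ratio of SVEC4-10 over MS-1 for every measured probe set of the members, filled points with bars of ± 0.48 (standard deviation between probe sets of a gene) for the probe set used and open points for further ones, with dashed lines at 2-fold. Values against background are lower bounds in size. The anti-apoptotic genes, Xiap and Birc3 lie left of 0, Casp6, Casp1 and Ripk3 lie right of the 2-fold line, and the probe sets of Bcl2l11, Bmf and Casp9 are spread widely.

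In the complex that forms on death receptors, 1 of 3 measured members was at least 2-fold apart, and Cflar also was under poly-A scaling. The first was Ripk3, the kinase that triggers necroptosis, with a signal of 924 in SVEC4-10 and 79.8 in MS-1, a ratio of 3.53 and an 11.6-fold difference from 1 probe set. The ratio ranged from 3.02 to 3.54 over the other ways of processing. Only the normalizations could move it, since its 1 probe set was above background in both lines.

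Cflar, the catalytically inactive relative of caspase-8 that restrains it, had a signal of 104 in SVEC4-10 and 191 in MS-1, a ratio of -0.88. Of its other 4 measured probe sets, 2 gave -1.25, 1 was at least 1.99-fold lower in SVEC4-10 and the dimmest, below background in SVEC4-10 and barely above it in MS-1, gave 0.040. Cflar and Casp8 are neighbours on chromosome 1 in assembly GRCm38.p6, with 0 other protein-coding genes between them, and their ratios of -0.88 and 0.71 lay on opposite sides of 0. Fadd, the adaptor that joins receptors to caspase-8, had a signal of 116 in SVEC4-10 and 128 in MS-1, a ratio of -0.14, with 0.31 at a dimmer probe set, both within the error.

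Genes of the interferon response also had higher signal in SVEC4-10, where 10 of 13 measured of 15 listed were at least 4-fold higher and 0 at least 2-fold lower. The summed signal of that list was 19108 in SVEC4-10 and 3676 in MS-1, and Usp18 had a signal of 2722 in SVEC4-10 and 75.8 in MS-1. Casp1 and Ripk3 were higher in the same line as this list and the mesenchymal one, and the part of either in their difference was not tested. Birc3, Bcl2, Bcl2l2 and Bcl2l1 were lower in the line with the lower endothelial markers, and the part of that was not tested either. Of 10 leukocyte markers, 6 were measured, with 1 at least 2-fold higher and 1 at least 2-fold lower in SVEC4-10 and a summed signal of 282 in SVEC4-10 and 3797 in MS-1. Cd68 made up most of the MS-1 sum, with a signal of 45.9 in SVEC4-10 and 3645 in MS-1, and Cd14 went the other way, with a signal of 160.0 in SVEC4-10 and a value below background in MS-1, at least 9.82-fold higher in SVEC4-10.

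Other genes of cell death were taken from 5 lists. Of 68 genes listed, 57 had a probe set of their own and 48 were measured, of which 11 (22.9%) were at least 2-fold higher in SVEC4-10, 3 (6.25%) at least 2-fold lower and 34 neither, beside 15.2% and 12% of all measured genes. Their median ratio was -0.026. With the deposited scaling, none of 7 measured further BCL2-related genes was at least 2-fold apart, and of 10 measured genes of mitochondrial release only Endog was, a nuclease that cuts DNA, with a signal of 54.8 in SVEC4-10 and 24.9 in MS-1, a 2.20-fold difference.

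Among 8 measured genes of execution and further inhibitors, 2 were at least 2-fold higher in SVEC4-10 and 0 lower. Dffb, the nuclease that fragments chromatin once its inhibitor is cleaved, had a signal of 36.8 in SVEC4-10 and 16.6 in MS-1, 2.21-fold higher. Naip6, of a family of near-identical genes whose signals cannot be told apart with certainty, had a signal of 32.7 in SVEC4-10 and was below background in MS-1, at least 2.01-fold higher.

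Among 13 measured genes of the death receptors and their adaptors, 4 were at least 2-fold higher in SVEC4-10 and 1 lower. Fas, the receptor that recruits Fadd, had a signal of 161 in SVEC4-10 and 40.3 in MS-1, a 4.00-fold difference. Tnfaip3, which encodes the NF-kB inhibitor A20, had a signal of 92.8 in SVEC4-10 and 28.7 in MS-1, 3.23-fold higher. Traf2, which brings Birc2 and Birc3 proteins to receptors, was 2.67-fold higher in SVEC4-10, and Tnfrsf21, which encodes death receptor 6, at least 2.48-fold. The ligand genes Fasl, Tnf and Tnfsf10 were not above background in either line by the probe sets used.

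Genes of necroptosis and pyroptosis held the largest ratios of the 5 lists in both directions, with 4 of 10 measured at least 2-fold higher in SVEC4-10 and 2 lower. Il18, which encodes a cytokine that caspase-1 matures, had a signal of 963 in SVEC4-10 and 71.1 in MS-1, 13.6-fold higher. Zbp1, a nucleic acid sensor that binds Ripk3, had a signal of 199 in SVEC4-10 and was below background in MS-1, at least 12.2-fold higher. Ninj1, which ruptures the plasma membrane of dying cells, was 4.17-fold higher, with ratios from 0.57 to 2.06 over 4 probe sets.

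Partners of Ripk3 and Casp1, and other genes of these lists, differed in direction. Mlkl, the protein that Ripk3 phosphorylates to open the membrane, had a signal of 749 in SVEC4-10 and 891 in MS-1, a ratio of -0.25 that is within the error. Pycard, the adaptor that joins sensors to caspase-1, was not above background in either line. Gsdme, a gasdermin that effector caspases cleave, had a signal of 229 in SVEC4-10 and 754 in MS-1, 3.29-fold lower in SVEC4-10. Gsdmd, which caspase-1 cleaves, was 2.29-fold higher and Aim2, a DNA sensor, at least 2.77-fold lower. Cyld, a deubiquitinase, was 2.25-fold lower by the probe set used, with ratios from -1.70 to -0.18 over 3 measured probe sets. These last 3, Mlkl, Pycard, Bcl2l13, Cd68, Cd14 and the 3 ligand genes were named after their values were seen.

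**Figure D4:**
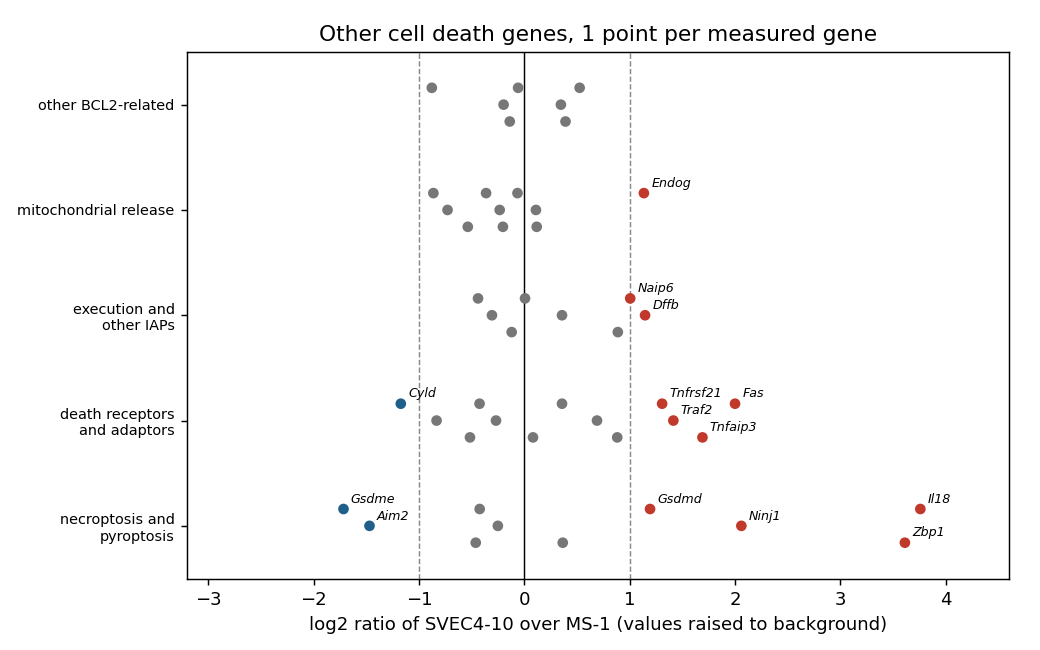
Log2 ratio of SVEC4-10 over MS-1 for the 48 measured genes of 5 further cell death lists, 1 point per gene, with dashed lines at 2-fold and names for genes at least 2-fold higher (red) or lower (blue) in SVEC4-10. Il18 and Zbp1 lie at 3.76 and 3.61, the Zbp1 value being a lower bound, and the BCL2-related and mitochondrial genes other than Endog lie between the dashed lines.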

How the data were processed

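Total RNA (6 µg) of 1 culture per line was labelled with biotin as cRNA by the Affymetrix protocol, per the labels' protocols. The deposited table holds 1 linear intensity per probe set and array, from 0.0687 to 13509 in SVEC4-10 and from 0.0937 to 14783 in MS-1, while the method of summary is not given in the sources used here. Each array's deposited intensities had a 2%-trimmed mean of 150.001, which points to a scaling of each array to one target, and they were used unchanged. The number of arrays limits the precision.

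Of 45101 probe sets, 34945 had 1 gene in the platform annotation, 932 had several and were left out, 9160 were unnamed here and 64 were controls. Names were updated by gene identifier to RefSeq, assembly GRCm38.p6 (34741 matched). For background, the 95th percentile was taken over 129 probe sets for receptors of smell, pheromones and taste and for keratin-associated proteins. Each gene took its probe set of highest mean log2 signal, with the cross-hybridising class used only where the gene had no other.

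No test was possible, and genes were counted as 2-fold or 4-fold apart, or more. All 31 members were named, as were up to 4 genes at least 2-fold apart from each further list and 8 marker genes. The alternatives were 3 normalizations, 3 backgrounds, 3 choices of probe set and the 4-fold threshold. The steps were tested on simulated data, with differences of at least 4-fold put into genes well above background. Smaller differences, and differences in genes near background, were not covered by it. The members and lists were chosen with earlier results of these data known. Python 3.11.15, numpy 2.4.6, pandas 2.3.3 and scipy 1.17.1 were used.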

Additional observations from a re-analysis of the deposited data

How the results depend on the processing

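With 1 array per line, no replicate could be left out. No paired analysis was possible because the lines share only replicate number 1. Over 9 alternatives to the scaling, the background and the probe set, 205 of 248 values of single members moved by less than the error of 0.48 (log2). Of 28 members, 19 kept one side of 0 throughout, a share not computed over all genes. These counts do not measure stability. Other backgrounds could not move members well above background, nor could probe set choices move those with 1 measured probe set. Poly-A scaling moved every member by 0.51, just over the error. The 5 members at least 2-fold higher in SVEC4-10 became 3 when the measured probe set of smallest ratio was used for each gene and 3 at a threshold of 4-fold. The 4 members at least 2-fold lower became 8 under poly-A scaling and 0 at 4-fold. The median ratio of the members became -0.62 with the poly-A scaling, which moved the median of all measured genes to -0.50 and left the difference between both medians at -0.12. Bmf turned to -0.49 with the probe set of smallest ratio, which is its cross-hybridising one. The Casp1 ratio ranged from 2.37 with background doubled to 8.53 with no background floor, because its MS-1 signal lies below background. Signal close to background limits what can be said of Pmaip1, Hrk and Bik.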

Other observations

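Some genes of cell death are read only by probe sets that the annotation gives to several genes, which were left out of all counts. The 3 probe sets of the Bcl2a1 genes, anti-apoptotic relatives of Bcl2 known from blood cells, had signals of 10.2, 18.5 and 1.01 in SVEC4-10 and 10.4, 8.11 and 8.77 in MS-1, and 1 of the 3 was above background, in SVEC4-10. Bnip3l, which encodes a mitochondrial receptor for autophagy and shares its probe sets with a pseudogene, had ratios of -0.15, 0.020 and 0.067. Moap1, which encodes a partner of Bax, shares its probe set with a predicted gene and had a signal of 316 in SVEC4-10 and 173 in MS-1. The probe set of the interferon-response gene Isg15, shared with a predicted gene, had a signal of 2592 in SVEC4-10 and 47.6 in MS-1, a 54.4-fold difference.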
